A study of Arabidopsis thaliana with 33 samples.

Results

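The first elongation section of the Arabidopsis thaliana root was compared with the late meristem just below it, in 2 single roots. Elongation section 1 is the tip-side one of 2 sections that together made up the elongation zone of a root. The late meristem stands for meristematic sections 5 and 6, the pair farthest from the tip among 6 meristematic sections, and its value in a root is the mean log2 intensity of that pair. The samples were chosen by these section labels, which took in 6 of the 33 arrays of the series, 2 of elongation section 1 and 4 of the late meristem. The root was the replicate (n = 2 roots), since all sections of a root came from the same plant. Elongation section 2 was left out of the comparison. Of its arrays, the one given here as root 1 carries the title style of that root, but its description names root 2, so its root is uncertain.

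The series mapped gene expression along the root and across its cell types on Affymetrix arrays of 22746 probe sets. A total of 25 arrays came from sections of the 2 roots, and 8 came from cells sorted by a fluorescent reporter. All sections were from seedlings 7 days after germination on standard medium, with no treatment, while the sorted cells came from younger seedlings, 5 to 6 days after germination, and the labels state no genotype or ecotype. A section is a slice through every cell type of the root, and its RNA was amplified in 2 cycles from 1 plant. A higher value can therefore stand for more cells of a type or for more RNA per cell, and these cannot be told apart here.

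Root cells divide in the meristem and then lengthen rapidly as they pass into the elongation zone. Lengthening needs a wall that yields: proton pumps acidify it, expansins loosen contacts between its polymers, xyloglucan endotransglucosylases cut and rejoin xyloglucan, and cellulose synthases and microtubules set the direction of growth. Certain epidermal cells later form root hairs, which use their own set of wall genes, expressed before the hair emerges.

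Deposited intensities had array medians near 1 in every section, so a level of about 1 is that of a typical probe set. The log2 values of elongation section 1 had an SD over probe sets of 0.992 in root 1 and 1.22 in root 2. In the late meristem the SD was 1.0 and 0.909 in root 1, and 0.891 and 0.835 in root 2, so the elongation array of root 2 was the most widely spread of the 6. Between elongation section 1 and meristem section 6 the Spearman correlation over probe sets was 0.915 in root 1 and 0.873 in root 2. Between sections 6 and 5 of the meristem it was 0.93 in root 1 and 0.864 in root 2.

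The genes taken as markers of elongation section 1 were GH9C1, EXPA7 and XTH21. GH9C1 encodes an endoglucanase, a wall enzyme that acts on glucan chains. Its intensity in elongation section 1 was 9.81 in root 1 and 16.6 in root 2. In late meristem sections 5 and 6 it was 0.697 and 0.818 in root 1, and 0.854 and 9.47 in root 2. Both elongation arrays were above all 4 late meristem arrays, as they were for 9.03% of all probe sets. Section 6 of root 2 was, however, already close to the elongation array of root 1. The mean log2 difference was 3.12 ± 0.60 (SE), with a limma adjusted p of 0.0642.

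EXPA7 encodes an expansin of root hair cells. Its intensity was 6.94 and 12.2 in elongation section 1 of roots 1 and 2. In sections 5 and 6 it was 0.742 and 0.897 in root 1, and 1.63 and 2.81 in root 2. The groups did not overlap, with the elongation arrays above, as for 9.03% of all probe sets. The log2 difference of 2.80 ± 0.56 (SE) had a limma adjusted p of 0.0797. XTH21, a xyloglucan endotransglucosylase, had 9.02 and 3.26 in elongation section 1 of roots 1 and 2. It had 1.99 and 3.37 in sections 5 and 6 of root 1, and 1.37 and 1.71 in those of root 2. Within each root the elongation section was highest, but the elongation array of root 2 lay just below section 6 of root 1. The log2 difference of 1.45 ± 0.29 (SE) also had a limma adjusted p of 0.0797.

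All 3 markers were thus higher in elongation section 1 within each root, but none passed the threshold of 0.05. The markers were chosen with earlier results of these data known, so these rises are no independent support for the label. The courses of the markers along the roots differed. XTH21 had its highest value of all 12 positions in elongation section 1 of both roots and was at 2.05 and 1.70 in elongation section 2. EXPA7 was about as high in the first maturation section, at 7.13 in root 1 and 11.4 in root 2, as in elongation section 1. The cell types differed as well: among the sorted populations GH9C1 and EXPA7 were highest in hair cells, at 17.6 and 16.9, while XTH21 was highest in xylem pole pericycle, at 7.70, and read 0.527 in hair cells.

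**Figure D1:**
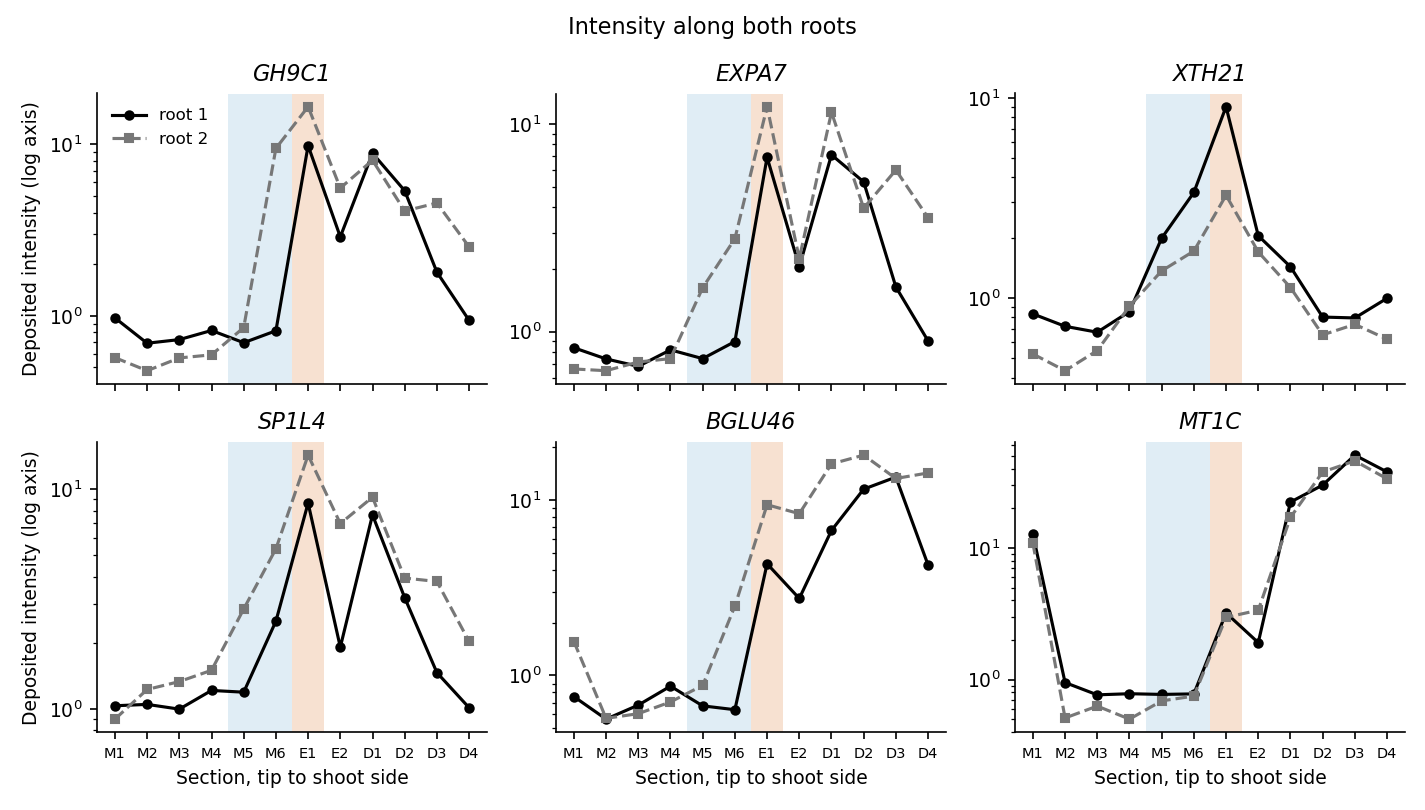
Deposited intensity (log axis) of the 3 markers and of the 3 named genes past the threshold, by section from the tip towards the shoot (M1 to M6 meristematic, E1 and E2 elongation, D1 to D4 maturation), with 1 line per root. Blue shading marks the late meristem sections and orange shading elongation section 1. All 6 genes were higher in elongation section 1 than in sections 5 and 6 of the same root, and only MT1C was also high at the tip.

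Over all probe sets, 42 rose in elongation section 1 at an adjusted p under 0.05, which is 0.185% of the 22746 tested, and 0 fell (0%). The test was limma's moderated test with the root as a block, with Benjamini-Hochberg adjustment over all probe sets. At an unadjusted p under 0.05 there were 1171 higher (5.15%) and 231 lower (1.02%). The 42 rises were between 2.15-fold and 15.8-fold, and 24 of them were at least 4-fold and 5 at least 8-fold. Both elongation arrays were above all 4 late meristem arrays for each of the 42, as they were for 9.03% of all probe sets. Of the 42, the platform annotation gave 1 gene for 17, and 3 of these genes have a symbol: BGLU46, SP1L4 and MT1C. The other 25 could not be paired with a gene here.

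The number of calls depended on the fit. Without the root as a block 9 probe sets passed, all among the 42, and with the 2 compared groups alone in the fit, which leaves 1 residual degree of freedom, 1452 passed. Of these 1308 were higher and 144 lower. The absence of falls thus depended on the fit, and also on scaling, with 84 higher and 24 lower after quantile normalization, and 37 higher and 29 lower after median centring and scaling of each array. With section 5 alone as the late meristem 174 were higher and 10 lower, and with sections 5 and 6 as separate levels 147 and 3. Leaving out 1 array moved the count to 102 without the elongation array of root 1, 11 without that of root 2, 7 without section 5 of root 2 and 121 without section 6 of root 2.

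SP1L4 belongs to the SPIRAL1-like family of small microtubule proteins, which act in directional cell growth. Its intensity in elongation section 1 was 8.65 in root 1 and 14.3 in root 2. In sections 5 and 6 it was 1.19 and 2.51 in root 1, and 2.85 and 5.35 in root 2. The level was higher in each section than in the one before it over these 3 sections, in both roots. The groups did not overlap, with the elongation arrays above, as for 9.03% of all probe sets. SP1L4 rose 4.28-fold (log2 2.10 ± 0.32 SE, limma adjusted p 0.0225). It passed in 12 of 20 alternative settings and not without the block, where the adjusted p was 0.195.

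BGLU46 encodes a beta-glucosidase that acts on the glucosides of lignin precursors. It had 4.34 and 9.42 in elongation section 1 of roots 1 and 2, against 0.671 and 0.638 in sections 5 and 6 of root 1 and 0.877 and 2.49 in those of root 2. Section 6 of root 2 was the only late meristem array above 1. BGLU46 rose 6.5-fold (log2 2.70 ± 0.45 SE, limma adjusted p 0.0356) and went higher still farther up, to 13.5 in root 1 and 18.1 in root 2 within the maturation zone. It passed in 13 of the 20 alternatives.

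MT1C encodes a metallothionein, a small cysteine-rich protein that binds metal ions. It had 3.21 and 2.97 in elongation section 1 of roots 1 and 2, against 0.773 and 0.780 in sections 5 and 6 of root 1 and 0.691 and 0.751 in those of root 2. All 4 late meristem arrays lay below 0.8 and both elongation arrays above them, as for 9.03% of all probe sets. MT1C rose 4.13-fold (log2 2.05 ± 0.24 SE, limma adjusted p 0.00587) and passed in 15 of the 20 alternatives. Its level was far higher elsewhere in both roots, at 50.6 and 45.8 in maturation section 3 and at 12.7 and 10.9 in meristem section 1.

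The other 14 single genes past the threshold have locus codes and no symbol. AT5G02890 and AT1G19900 were the steadiest, since both passed in all 20 alternative settings. AT5G02890 had 4.37 and 3.15 in elongation section 1 of roots 1 and 2, against 0.728 and 0.796 in sections 5 and 6 of root 1 and 0.705 and 0.870 in those of root 2. It rose 4.80-fold (log2 2.26 ± 0.22 SE, limma adjusted p 0.00302). It had 1.09 and 1.23 in elongation section 2, and 2.12 and 1.20 in maturation section 2.

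AT1G19900 had 4.00 and 3.01 in elongation section 1 of roots 1 and 2, against 0.775 and 0.877 in sections 5 and 6 of root 1 and 1.10 and 0.894 in those of root 2. It rose 3.84-fold (log2 1.94 ± 0.21 SE, limma adjusted p 0.0053). Among the sorted populations it stood out in hair cells, at 5.5, with 1.09 in companion cells as the next value.

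AT3G49960 had the largest rise among the locus-code genes. It had 6.05 and 8.19 in elongation section 1 of roots 1 and 2, against 0.741 and 1.10 in sections 5 and 6 of root 1 and 1.19 and 1.86 in those of root 2. Both elongation arrays were above all 4 late meristem arrays, as for 9.03% of all probe sets. AT3G49960 rose 6.07-fold (log2 2.60 ± 0.38 SE, limma adjusted p 0.0193). Its level in sorted hair cells was 13.4, and the next value was 1.21, in xylem pole pericycle.

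The remaining 11 of these genes rose between 2.32-fold (AT2G36430) and 3.85-fold (AT3G21340). AT1G07795 had 6.41 and 7.71 in elongation section 1, against 1.21 to 2.53 in the late meristem, and had 1.33 and 1.42 in elongation section 2. AT3G21340 differed in size between the roots, with a log2 difference of 2.72 in root 1 and 1.18 in root 2. Of the 11, 7 were highest in hair cells among the sorted populations, AT3G29410 and AT3G22540 in the mixed pericycle, xylem and phloem line J2501, AT4G33740 in companion cells and AT1G75620 in protophloem and metaphloem. AT1G75620 had 8.48 there and 0.974 in hair cells. Others were low or near ties. AT3G29410 read only 0.780 in J2501. AT3G14280 had 0.917 in hair cells and 0.908 in companion cells, and AT4G33740 had 1.89 in companion cells and 1.82 in lateral root primordia. AT3G14280 was higher in the last maturation section (4.23 and 4.20) than in elongation section 1 (2.00 and 2.31).

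**Figure D2:**
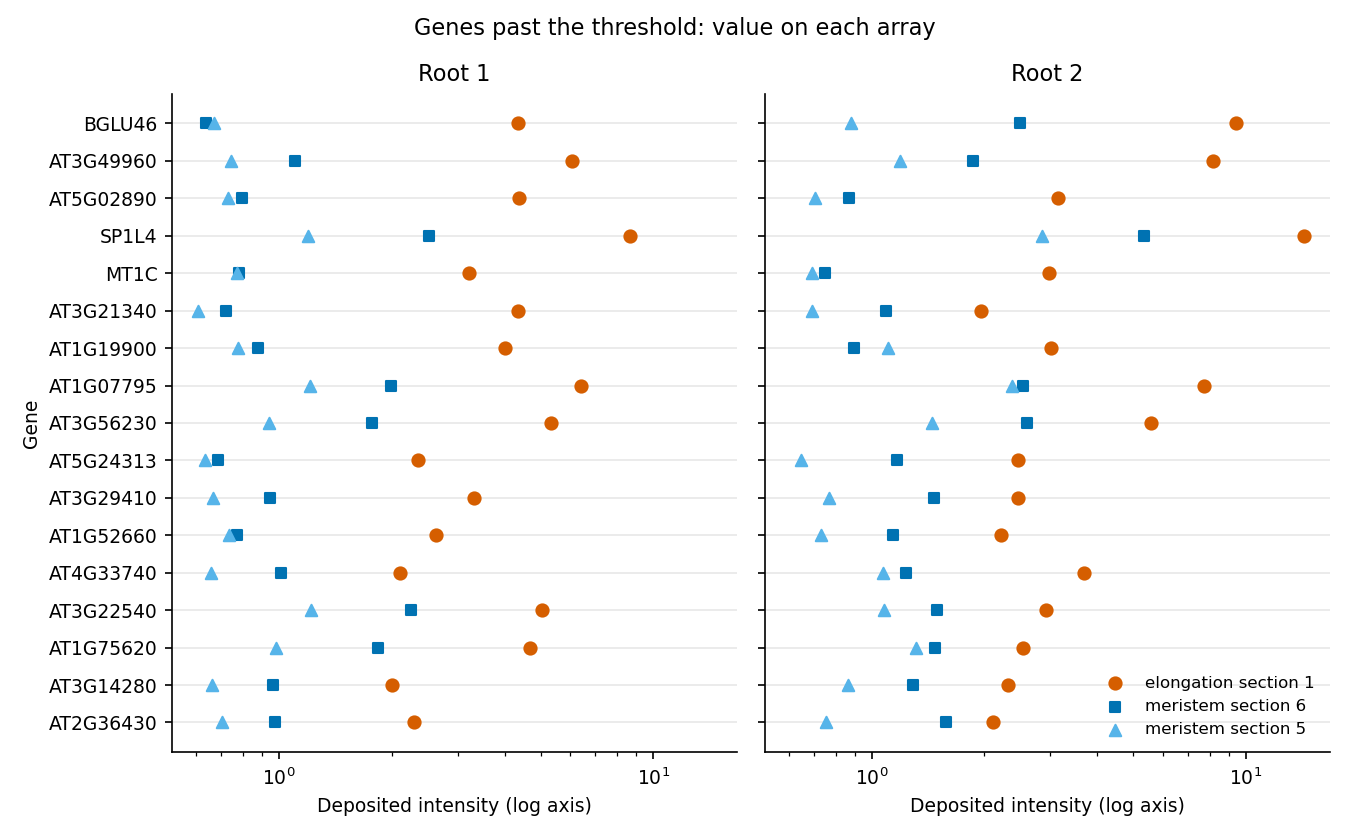
Deposited intensity (log axis) on each array for the 17 genes past the threshold that are paired with 1 gene, root 1 on the left and root 2 on the right. Orange circles are elongation section 1, dark blue squares meristem section 6 and light blue triangles meristem section 5. The circle is the rightmost symbol of every gene in both roots, and section 6 is mostly, not always, to the right of section 5.

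With any 1 of the 6 arrays left out, 4 probe sets passed each time: those of AT5G02890 and AT1G19900, and 2 of the 25 without a gene. One of that pair had 8.86 and 10.3 in elongation section 1 of roots 1 and 2, against 1.35 to 3.30 in the late meristem, and rose 4.36-fold. The other had 6.06 and 2.89 in elongation section 1 of roots 1 and 2, against 0.80 to 1.09 in the late meristem, and rose 4.56-fold.

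The roots differed in the shape of the whole distribution. The median log2 difference over all probe sets was -0.04 in root 1 and -0.15 in root 2, with quartiles of -0.15 and 0.09 in root 1 and -0.35 and 0.30 in root 2. The differences of the 2 roots correlated over probe sets with a Pearson r of 0.462 and a Spearman rho of 0.270, as a description over probes that share the same 6 arrays. A difference of at least 2-fold in both roots was found upward for 389 probe sets (1.71%) and downward for 36 (0.158%).

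**Figure D3:**
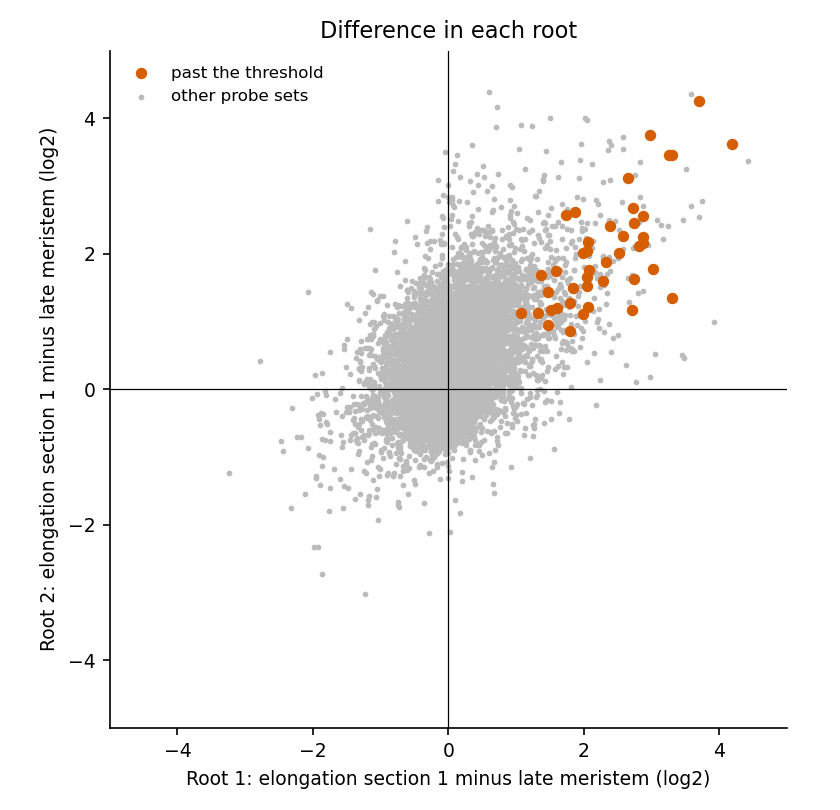
Log2 difference of elongation section 1 from the late meristem in root 1 (x axis) and root 2 (y axis), 1 point per probe set. The 42 probe sets past the threshold (orange) lie in the upper right, and the grey cloud reaches farther along the vertical axis, the root with the wider array.

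Most of the 42 were already higher in section 6 than in section 5, with a larger median step at the border. The level was higher in section 6 for 40 of them in root 1 and 39 in root 2, against 13068 and 13180 of all 22746 probe sets. It was at least 2-fold higher for 9 of them in root 1 and 14 in root 2, against 224 and 270 of all. The median log2 step between sections 6 and 5 was 0.49 in root 1 and 0.73 in root 2. The median step between elongation section 1 and section 6 was 1.92 and 1.56. These steps describe probe sets chosen with the same arrays, so they carry no test.

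With each section as its own level in the fit, 7 probe sets rose in elongation section 1 over section 6 (0.0308%) and 0 fell, by limma adjusted p. AT5G02890, MT1C and AT1G19900 were the single genes among them, with log2 steps of 2.16, 2.01 and 1.97. At an unadjusted p under 0.05, 1003 were higher (4.41%) and 196 lower (0.862%). In section 6 over section 5, 0 passed in either direction by limma adjusted p, with 216 higher (0.95%) and 138 lower (0.607%) at an unadjusted p under 0.05. The difference between the 2 steps was tested directly, and 0 probe sets passed in either direction, with 217 higher (0.954%) and 92 lower (0.404%) at an unadjusted p under 0.05. A difference of at least 2-fold in both roots was found upward for 39 probe sets (0.171%) and downward for 37 (0.163%) in section 6 over section 5, and upward for 324 (1.42%) and downward for 19 (0.0835%) in elongation section 1 over section 6. By the test of the 2 steps, no gene was shown to move more at the border than inside the late meristem.

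GH9C1 shows how the roots could differ in where the step fell. In root 1 its log2 step was 0.23 between sections 6 and 5 and 3.59 between elongation section 1 and section 6. In root 2 the steps were 3.47 and 0.81. MT1C made nearly its whole step at the border in both roots, with a mean log2 step of 0.07 inside the late meristem.

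Courses beyond the compared sections are described for the 42 without a test. They were chosen for high values on the elongation section 1 arrays, which favours a peak there and lower values later. Over 11 positions without elongation section 2, elongation section 1 was the highest in both roots for 28 of the 42, against 539 of all 22746 probe sets, and a maturation section was the highest in both roots for 11, against 3890 of all. The level in the last maturation section was below that of elongation section 1 in both roots for 33, against 4059 of all, and above it in both for 6, against 5759 of all. Elongation section 2 was below elongation section 1 for all 42 in root 1 and for 38 in root 2, against 8203 and 9447 of all probe sets. In root 1 the log2 SD was only 0.426 for elongation section 2 and 0.639 for the last maturation section, and the part of this narrow spread in the counts was not tested.

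The sorted populations share no array with the sections. Apart from hair cells they were pericycle, phloem, xylem, companion cell and lateral root primordia lines, so no other outer tissue was sorted. A highest level in hair cells therefore does not make a gene particular to them. Hair cells, marked by the COBL9 reporter, were the population of highest level for 22 of the 42 (52.4%), against 3702 of all probe sets (16.3%). Their level was at least 4-fold above the next population for 7 of the 42 (16.7%), against 1.04% of all probe sets. The wider group of 389 probe sets at least 2-fold higher in both roots gave 159 highest in hair cells (40.9%). The shares of all probe sets take in those of low level, where small differences can decide which population is highest. The mixed line J2501 was highest for 27.4% of all probe sets, but at least 4-fold above the next population for only 1. The shares were not matched for level.

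Probe sets highest in hair cells were not found on the rising side alone. Of the 36 probe sets at least 2-fold lower in both roots, 14 were highest in hair cells (38.9%) and 6 were at least 4-fold above the next population there (16.7%). Meristematic xylem, marked by S4, was highest for 13 of those 36 (36.1%), against 17 of the 389 (4.37%) and 23.5% of all probe sets. Phloem pole pericycle, marked by S17, was highest for 93 of the 389 (23.9%) and for 0 of the 36, against 9.95% of all probe sets. Each population is 1 array, so these shares are descriptions.

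**Figure D4:**
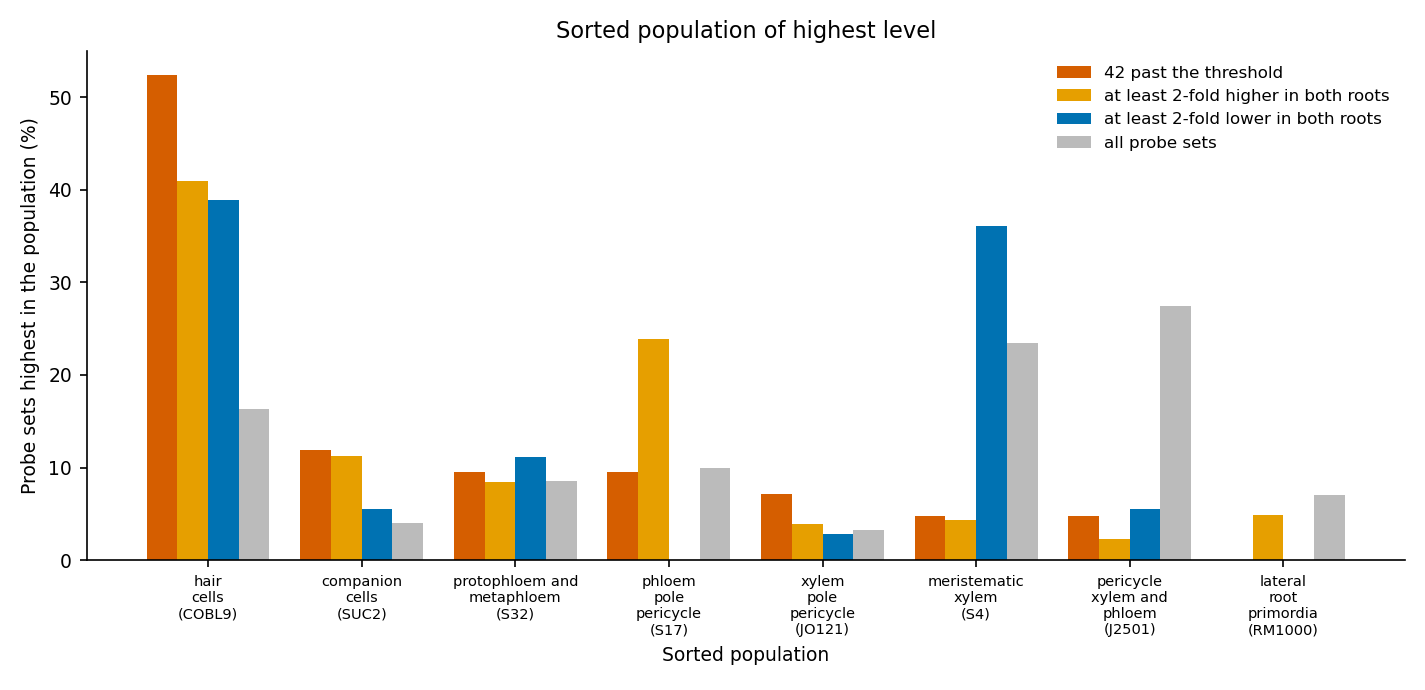
Share of probe sets (percent, y axis) whose highest sorted-cell level was in each of the 8 populations (x axis), for the 42 past the threshold, those at least 2-fold higher or lower in both roots, and all probe sets. Hair cells hold 52.4% of the 42 and 16.3% of all, and the bars for higher and lower probe sets are about equal there.

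Gene families were set beside the median log2 difference of all probe sets, -0.11. The lists hold only genes matched by symbol or synonym, so other measured members can be missing from each count. The root hair list had 4 measured genes with a median log2 difference of 1.96, and 0 of the 4 passed. EXPA18, a root hair expansin and the near relative of EXPA7, had 3.94 and 13.1 in elongation section 1 of roots 1 and 2, against 0.704 and 0.801 in sections 5 and 6 of root 1 and 0.966 and 2.45 in those of root 2. The groups did not overlap, with the elongation arrays above, as for 9.03% of all probe sets. The log2 difference of EXPA18 was 2.74 ± 0.55 (SE, limma adjusted p 0.0797). SCN1, which restricts the site of hair outgrowth, had a log2 difference of 1.18 and GEM, a regulator of epidermal fate, 0.26. The summed intensity of the 4 genes was 16.6 and 33.9 in the elongation arrays, against 5.98 to 9.10 in the late meristem arrays, and all 4 were highest in hair cells among the sorted populations. Their part in the differences of other genes was not tested.

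Markers of other cell types were few. The 3 xylem wall genes (LAC16, IRX15 and GUT2) summed to 2.46 and 2.82 in elongation section 1, against 2.32 to 2.57 in the late meristem, with each gene near 1 on every array. The 3 phloem genes (ATC, ROXY2 and OPS) summed to 8.65 and 6.26, against 3.06 to 6.86, mostly through ATC. TRY of the hair pattern, JKD of the ground tissue and FACT of suberin synthesis had log2 differences of -0.33, -0.42 and 0.06.

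In the wall-loosening lists no matched member passed. Among 19 expansins and expansin-like genes, 0 passed and the median log2 difference was -0.18. EXPA7, EXPA18 and EXLA1 were at least 2-fold higher in both roots, while EXPA9 was lowest at -0.76. EXPA9 had 0.758 and 0.693 in elongation section 1 of roots 1 and 2, against 0.897 to 1.57 in the late meristem (limma adjusted p 0.271). Its elongation values were below the array medians of 0.878 and 0.836. Both also lay below all 4 late meristem arrays, as for 20.7% of all probe sets. The 15 GH9 endoglucanases had a median of -0.19 with 0 passing, and GH9C1 was the only one at least 2-fold higher in both roots.

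The 10 xyloglucan endotransglucosylases had a median log2 difference of 0.69, with 0 passing. Their summed intensity was 52.4 and 50.8 in elongation section 1, against 25.5 to 37.9 in the late meristem. XTH18 had 19.3 and 23.7 in elongation section 1 of roots 1 and 2, against 1.83 and 13.5 in sections 5 and 6 of root 1 and 10.6 and 15.1 in those of root 2. Its climb was already large between sections 5 and 6 of root 1, and its limma adjusted p was 0.794.

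The 5 proton pump genes had a median of 0.73 with 0 passing, which turned to -0.12 with each array centred and scaled, and all 5 were highest in hair cells. The list takes in subunits of vacuolar pumps, so it does not stand for pumps that acidify the wall. AT3G58730, listed through a synonym, had 6.98 and 10.7 in elongation section 1 of roots 1 and 2, against 1.34 to 2.67 in the late meristem (log2 2.10, limma adjusted p 0.415). VHA-A3, a vacuolar pump subunit, had a log2 difference of 1.08 (limma adjusted p 0.794).

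Wall-building families were likewise mixed. The 12 cellulose synthesis genes had a median log2 difference of 0.20 with 0 passing. CSLD2, a cellulose synthase-like gene of root hairs, had 10.3 and 14.4 in elongation section 1 of roots 1 and 2, against 4.01 to 8.54 in the late meristem. Its log2 difference was 1.04, and it turned to -0.14 with each array centred and scaled. The 24 TBL genes, named for wall acetylation, had a median of 0.02 with 0 passing, but their range was wide. TBL41 and TBL38 had log2 differences of 2.05 and 1.88, and TBL39 had -1.23.

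TBL39 had 7.19 and 6.64 in elongation section 1 of roots 1 and 2, against 16.5 and 17.7 in sections 5 and 6 of root 1 and 17.4 and 13.5 in those of root 2. Both elongation arrays were below all 4 late meristem arrays, as they were for 20.7% of all probe sets, and the limma adjusted p was 0.431. HRGP1, a hydroxyproline-rich wall glycoprotein and the only extensin matched by symbol or synonym, had a log2 difference of 1.79 (limma adjusted p 0.206). It made a larger mean step inside the late meristem, 2.17, than at the border, 0.70. The 7 class III peroxidases matched by symbol or synonym had a median of 0.22 and the 5 pectin enzymes 0.04, with 0 passing in either list. The match can miss members, so genes past the threshold known by a locus code could still belong to these families.

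HCT, an enzyme of lignin precursor synthesis named after its values were seen, had 9.06 and 14.5 in elongation section 1 of roots 1 and 2. In sections 5 and 6 it had 1.62 and 2.29 in root 1, and 1.80 and 3.30 in root 2. The groups did not overlap, with the elongation arrays above, as for 9.03% of all probe sets. The log2 difference of 2.41 ± 0.48 (SE) had a limma adjusted p of 0.0797. In root 2, HCT was higher still in elongation section 2, at 16.1.

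Among the lists, only the SPIRAL1-like genes, which are cytoskeletal, and the beta-glucosidases had a passing member. Both lists were added after the annotation was read, and no list set before that had a passing member. Of 5 SPIRAL1-like genes, SP1L4 rose and the median log2 difference was -0.07. The 7 tubulins had a median of 0.12 with 0 passing, and -0.21 with each array centred and scaled. TUB1, a beta-tubulin, had 4.85 and 7.03 in elongation section 1 of roots 1 and 2, against 8.02 to 11.9 in the late meristem. Its elongation arrays were the 2 lowest of the 6, as for 20.7% of all probe sets (limma adjusted p 0.794). The 15 TON1 recruiting motif genes, which organise microtubule arrays, had a median of -0.06 with 0 passing. WLIM2a and WLIM1, actin-bundling proteins named after their values were seen, had log2 differences of 1.98 and 1.63 (limma adjusted p 0.301 and 0.228).

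IQD genes, which encode calmodulin-binding scaffold proteins, held 2 members that were at least 2-fold lower in both roots. iqd32 had 1.10 and 1.52 in elongation section 1 of roots 1 and 2, against 3.00 and 3.13 in sections 5 and 6 of root 1 and 4.76 and 3.70 in those of root 2. iqd33 had 1.20 and 0.813, against 2.42 and 3.09 in root 1 and 2.78 and 2.28 in root 2. Both elongation arrays were below all 4 late meristem arrays for each gene, as they were for 20.7% of all probe sets. For iqd32 the roots were alike, with log2 differences of -1.49 in root 1 and -1.46 in root 2. The log2 differences were -1.47 ± 0.27 and -1.41 ± 0.30 (SE), with limma adjusted p of 0.0523 and 0.106. The whole list of 15 had a median of -0.19, and 0 passed.

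Other lower values were named after they were seen. DRT100 had 7.54 and 0.749 in elongation section 1 of roots 1 and 2, against 17.7 in both late meristem sections of root 1 and 10.1 and 3.65 in those of root 2. Its log2 difference was -1.23 in root 1 and -3.02 in root 2, a wide spread, with a limma adjusted p of 0.718. BIM1, a partner of brassinosteroid transcription factors, had a log2 difference of -1.37 (limma adjusted p 0.340). CuAO1, a copper amine oxidase, had -1.43 (limma adjusted p 0.394) and was highest in sorted hair cells, at 10.04.

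The lists of division genes held no passing member. The 11 kinesin and mitotic apparatus genes had a median log2 difference of -0.16, the 6 core histones 0.01 (-0.39 with each array centred and scaled) and the 6 DNA replication genes -0.10, close to the median of all probe sets. The core histones summed to 12.9 and 14.3 in elongation section 1, against 15.5 and 22.9 in the late meristem of root 1 and 8.41 and 10.3 in that of root 2, so the roots lay on opposite sides. SIM, an inhibitor of cyclin-dependent kinases tied to endoreduplication, had -0.69 (limma adjusted p 0.794). Its elongation arrays, at 2.91 and 4.68, were below all 4 late meristem arrays, at 5.30 to 7.47, as for 20.7% of all probe sets. CDC27a and HBT, subunits of the anaphase-promoting complex and the only genes matched to the cyclin and CDK list, had a median of -0.32. The 2 actin genes matched had a median of 0.35. The only 60S ribosomal protein gene matched had 0.11, and WAG2, the only auxin transport gene matched, had 0.34.

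No gene of the hormone lists passed. The 15 auxin response genes had a median log2 difference of -0.16, the 6 cytokinin genes -0.21 and the 6 gibberellin and brassinosteroid genes 0.04. GH3.17, which conjugates auxin to amino acids, was the lowest auxin gene at -0.45, and LBD16, a lateral root regulator, was the highest at 0.32.

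Metabolic and stress families held single genes with large differences around flat medians. The 22 beta-glucosidases had a median log2 difference of -0.23, with BGLU46 as the 1 passing member. The 51 UGT glycosyltransferases had -0.08, the 24 cytochrome P450s -0.17 and the 14 glutathione transferases 0.10, with 0 passing in each. UGT74B1, an enzyme of glucosinolate synthesis, had 5.92 and 7.59 in elongation section 1 of roots 1 and 2, against 0.956 to 1.49 in the late meristem. Both of its elongation arrays were above all 4 late meristem arrays, as for 9.03% of all probe sets. The log2 difference of UGT74B1, 2.49, had a limma adjusted p of 0.113. GSTU28 was far higher in 1 root, with log2 differences of 3.06 in root 1 and 0.52 in root 2.

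The 11 wound and stress genes had a median of 0.37, with 0 passing and STZ, a zinc finger regulator of stress responses, the largest at 1.17. The 15 tetraspanins had a median of -0.03 with 0 passing. TET8 had 6.92 and 9.15 in elongation section 1 of roots 1 and 2, against 1.66 to 2.70 in the late meristem, with a log2 difference of 1.81 (limma adjusted p 0.0854). The 10 RALF-like peptides, 10 subtilases, 29 SCPL genes and 16 SWEET sugar transporters had medians of -0.15, -0.10, -0.16 and -0.15, and 0 passed in any of them. RALFL27 and scpl48 had log2 differences of 1.27 and 1.93.

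**Figure D5:**
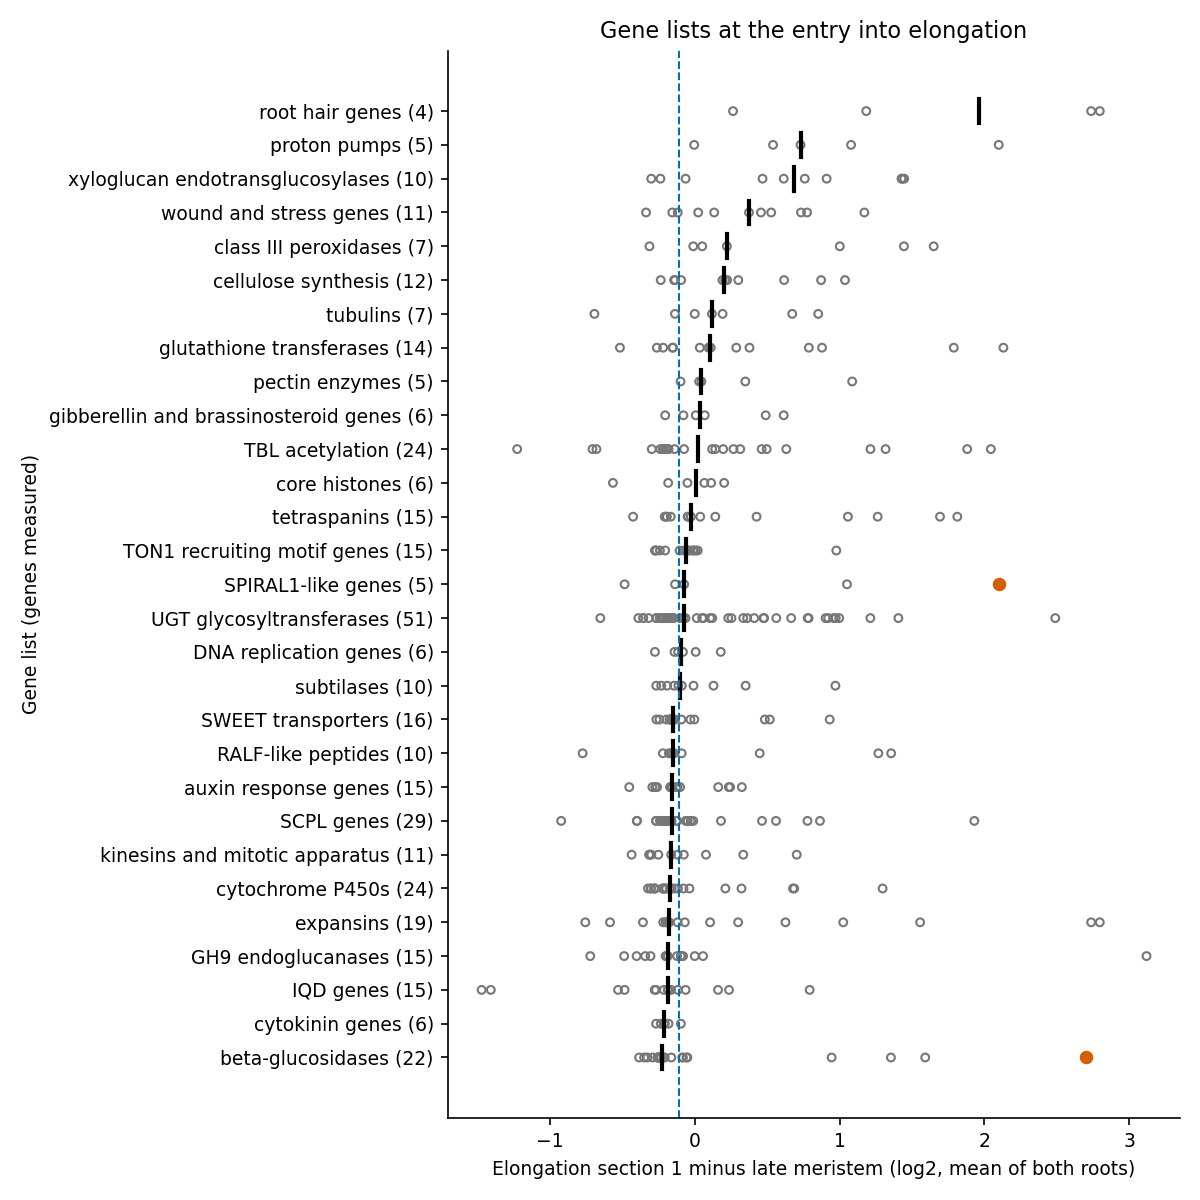
Log2 difference of elongation section 1 from the late meristem (x axis) for every gene matched to each list of at least 4 such genes (y axis, number of genes in brackets). Circles are genes, filled orange where past the threshold, black bars are list medians, and the dashed blue line is the median of all probe sets, -0.11. Only SP1L4 and BGLU46 are filled, and the root hair, proton pump and xyloglucan endotransglucosylase medians lie farthest to the right of those drawn, the proton pump one turning to -0.12 with each array centred and scaled.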

How the data were processed

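The values are the deposited expression intensity per probe set, on a linear scale with all values above 0. Per the labels, total RNA was isolated on small-scale columns and its cRNA made by the two-cycle amplification of Affymetrix. How the authors corrected, summarised and scaled the arrays is not given in the sources used here. Precision is limited by the number of arrays.

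The log2 of each value was taken, without an offset or a filter. For each root, sections 5 and 6 were averaged. limma 3.58.1 in R 4.3.3 fitted 20 values (10 levels, 2 roots) with the root as a block, leaving out elongation section 2. Residual degrees of freedom were 9, to which limma added 3.68. The other meristem and maturation sections share the estimate of spread. P values are two-sided, moderated, and adjusted by Benjamini and Hochberg over 22746 probe sets at 0.05. Steps between single sections came from a fit with each position as a level.

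The block comes from the design, since sections of a number are from the same root. The differences between the roots at elongation section 1 and in the late meristem correlated at 0.334 over probe sets. Array titles are styled differently for each root, so batch and root cannot be told apart. With the block, the mean difference between the 2 plants is removed and does not enter the P values. The P values rest on how far the 2 plants disagreed in their differences between positions. This spread is pooled over all levels in the fit, not taken from the compared sections alone, and comes from only 2 plants. There were 0 columns of per-sample values left unused.

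Of the probe sets, 13513 listed 1 gene, 503 several and 8730 were not listed in the platform annotation; 13436 matched the TAIR10.1 gene table, which gave symbols for 1530 genes. A gene is named by its probe set of highest mean level. List members were found by gene symbol or synonym, so a list leaves out measured genes whose symbol and synonyms did not match. Lists to which no gene was matched were arabinogalactan proteins, aquaporins, root cap genes, 40S ribosomal proteins, ribosome biogenesis and lipid transfer proteins. Genes of these families may still be among the probe sets measured.

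The samples, markers and lists were chosen with earlier results of these data known, and the lists of SPIRAL1-like, TON1 recruiting motif, IQD, beta-glucosidase, tetraspanin, RALF-like, subtilase, SCPL and SWEET genes were added after the annotation was read. The genes named are up to 10 rises and 10 falls past the threshold with a symbol, the passing or else the 2 largest members of each list, and the markers. Locus-code genes past the threshold, HCT, WLIM1, WLIM2a, DRT100, BIM1, CuAO1, EXLA1, EXPA9, TBL39, SCN1, GEM, LAC16 and OPS were named after their values were seen. On simulated data of 22746 probe sets for this comparison, 45 of 100 changed by log2 1 and 87 of 100 changed by log2 2 were recovered, with 5 unchanged ones called. The noise was drawn independently for each value from the fitted spread, and the changed probe sets were picked at random. The recovery need not hold for genes of wider spread, such as EXPA7, whose log2 difference of 2.80 did not pass.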

Additional observations from a re-analysis of the deposited data

How the results depend on the processing

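The count of 42 probe sets past the threshold kept within 1.5 times with elongation section 2 added to the fit (39), offsets of 0.1 (44) and 1 (47), and only the 11373 brighter probe sets tested (32). It moved to 9 with no replicate block, 6 with section 6 alone or with array weights, 66 with median centring and scaling of each array, 89 with a trended prior variance, 108 with quantile normalization, 150 with sections 5 and 6 as separate levels, 167 without the positions of the lowest spread, 184 with section 5 alone and 1452 with only the groups compared. Leaving out 1 array gave 7 to 121. Of the 42, 20 were shared with the quantile-normalized calls and 8 with the centred and scaled ones. For elongation section 1 over section 6, settings added after the data were seen gave 4 with no replicate block and 17 with quantile normalization, against 7; for section 6 over section 5, quantile normalization gave 2. The 98 genes followed gave 1941 values, of which 1922 kept their direction. On centred and scaled arrays CSLD2 turned to -0.14, SBT4.12 to -0.61, GEM to -0.099, LAC16 to 0.064 and HTB4 to -0.67. With quantile normalization GEM turned to -0.059 and LAC16 to 0.062, and HTB4 to -0.20, and HTB4 to -0.027 with section 5 alone; the cause was not tested. With an array or a root left out the log2 difference ran from -0.69 to 1.39 for ATPMEPCRB, -0.0012 to 1.23 for EXO, -0.071 to 0.52 for IRX15, -0.19 to 0.53 for ROXY2, -0.38 to 1.09 for ATSBT5.2, -0.23 to 0.76 for GEM, -0.020 to 0.14 for FACT, -0.23 to 0.033 for LAC16, -0.11 to 0.79 for WAG2 and -0.73 to 1.13 for HTB4, where fewer arrays enter. The highest adjusted p over the alternatives was 0.031 for AT5G02890, 0.048 for AT1G19900, 0.432 for BGLU46, 0.757 for SP1L4 and 0.811 for MT1C. The median of the root hair list stayed between 1.43 and 2.09 and that of the xyloglucan endotransglucosylases between 0.37 and 0.90 over the alternatives.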
